A study of Gallus gallus with 6 samples.

Results

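The neurotrophin gene BDNF and the receptor gene NTRK2, which encodes TrkB, were followed through RNA sequencing of chicken basilar papillas that had been infected with a Wnt9a virus. Both were selected on their fold changes and p-values, as they were found by name in the authors' deposited tables of changed genes, and they are 2 of the 15955 Ensembl genes in the count table. The basilar papilla is the auditory sensory organ of the bird inner ear. Otocysts of the right ear received RCAS(A), the parent retrovirus, or RCAS(A)-Wnt9a on embryonic day 3, and papillas were taken on embryonic day 6. Each group held 3 libraries, each from RNA of 24 pooled papillas, numbered 2, 3 and 4 for RCAS(A) and 1, 2 and 3 for RCAS(A)-Wnt9a. Embryos of both groups thus carried a replicating RCAS(A) virus, and no uninfected papillas were part of the comparison. The labels give neither strain nor sex of the embryos, and no genetic alteration besides the virus.

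Library totals lay between 19200235 and 23017150 counts, and pairs of libraries within a group correlated at r = 0.992 to 0.996 across genes on log2 CPM (counts per 1000000 of the scaled library). WNT9A, the gene carried by the virus, was at 7.90, 6.87 and 10.3 CPM in the RCAS(A) libraries and at 1340, 539 and 427 CPM in the RCAS(A)-Wnt9a libraries 1, 2 and 3. The prosensory genes SOX2, at 67.9 to 72.3 CPM, and ISL1, at 134.5 to 152.3 CPM, were present in every RCAS(A) library, as was TECTB, which encodes a protein of the tectorial membrane, at 40.1 to 57.3 CPM. TECTB stood at only 0.72 to 4.23 CPM with RCAS(A)-Wnt9a.

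BDNF encodes a secreted growth factor that is made as a precursor and cleaved to its mature form. It binds TrkB, a receptor tyrosine kinase whose gene also gives truncated forms without the kinase domain, and bound TrkB signals through the Ras and MAP kinase, PI3 kinase and phospholipase C gamma routes. In the inner ear BDNF is made by the sensory epithelium, and TrkB on ganglion neurons receives it, which supports their survival and the growth of their fibres to the sensory organs. TrkB is also known from glia and mesenchymal cells, and counts per gene do not separate its isoforms.

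BDNF (ENSGALG00000012163), the ligand gene, was lower in every RCAS(A)-Wnt9a library than in any RCAS(A) library. Its level was 9.80, 10.4 and 10.8 CPM in RCAS(A) libraries 2, 3 and 4, from 227, 227 and 218 counts. It was 5.45, 6.76 and 6.37 CPM in RCAS(A)-Wnt9a libraries 1, 2 and 3, from 121, 152 and 120 counts. The 3 RCAS(A) libraries stood close together and the groups did not overlap: the highest RCAS(A)-Wnt9a library was 31.0% below the lowest RCAS(A) library. Such a separation, with RCAS(A)-Wnt9a lower, was found for 9.16% of all tested genes. The group means were 10.3 ± 0.48 and 6.19 ± 0.68 CPM (SD, n = 3 per group), and the fit gave a log2 fold change of -0.74 (SE 0.14), which puts the RCAS(A)-Wnt9a level at 60.1% of that in RCAS(A). The authors' tables of changed genes chose both members, so this contrast is given for them as a description and no test of it is read.

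The counts behind BDNF were few. Counting alone gives a coefficient of variation of 6.68% on average in the RCAS(A) libraries and 8.78% in the RCAS(A)-Wnt9a libraries, and the values between libraries varied by 4.69% and 10.9%. The spread of BDNF within a group was therefore about the size of its counting error. The exact Poisson intervals, which cover counting error only, ran from 8.57 to 11.2 CPM for RCAS(A) library 2, the lowest of its group. They ran from 5.73 to 7.93 CPM for RCAS(A)-Wnt9a library 2, the highest of its group. That these 2 intervals did not touch adds no support, as the contrast had chosen BDNF.

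NTRK2 (ENSGALG00000012594), the receptor gene, was also lower in every RCAS(A)-Wnt9a library. It was at 109.7, 90.9 and 90.2 CPM in RCAS(A) libraries 2, 3 and 4, and at 69.3, 73.2 and 64.5 CPM in RCAS(A)-Wnt9a libraries 1, 2 and 3. RCAS(A) library 2 stood above the other RCAS(A) libraries. The groups did not overlap, as for 9.16% of all tested genes, with a gap of 18.9% between the lowest RCAS(A) and the highest RCAS(A)-Wnt9a library. The means were 96.9 ± 11.0 and 69.0 ± 4.32 CPM (SD, n = 3 per group). The fit gave a log2 fold change of -0.49 (SE 0.08), or 71.2% of the RCAS(A) level. In these bulk libraries, fewer cells of a type and less RNA per cell cannot be told apart, for NTRK2 as for BDNF.

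**Figure D1:**
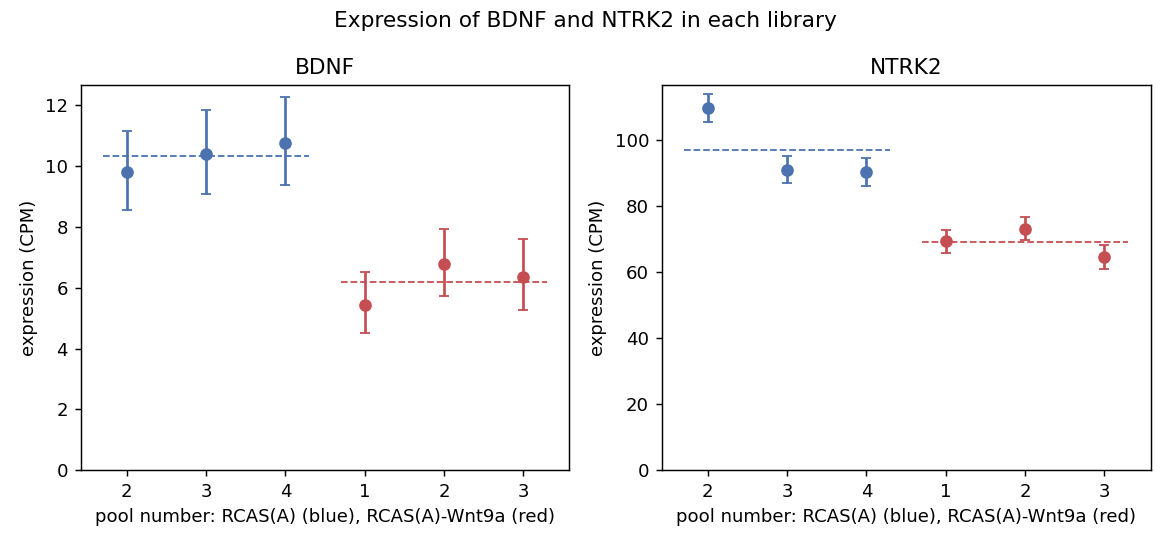
BDNF and NTRK2 in TMM-scaled CPM in each of the 6 libraries, with RCAS(A) in blue and RCAS(A)-Wnt9a in red; bars are exact 95% Poisson intervals of the counts and dashed lines the group means. All 3 RCAS(A)-Wnt9a libraries lie below all 3 RCAS(A) libraries for both genes, as for 9.16% of all tested genes. RCAS(A) library 2 is the highest for NTRK2 at 109.7 CPM.

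NTRK2 had between 1216 and 2541 counts per library, so counting error was small beside the spread between pools. Counting gives a coefficient of variation of 2.19% in RCAS(A) and 2.63% in RCAS(A)-Wnt9a, while the libraries varied by 11.4% and 6.27%. The biological coefficient of variation estimated by edgeR was 7.41% for NTRK2 and 10.7% for BDNF, against a median of 7.75% over all tested genes. This estimate draws each gene toward other genes of like level. It is therefore not the spread of BDNF itself, which was about the size of its counting error.

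The libraries did not order the members alike. Within the RCAS(A) group, library 2 was the lowest for BDNF and the highest for NTRK2. Within the RCAS(A)-Wnt9a group, BDNF was lowest in library 1, which held the most WNT9A, and NTRK2 was lowest in library 3, which held the least. The Poisson intervals of BDNF overlapped among all libraries of a group, so its order within a group is not resolved. Each group has 3 pools, and no relation to the level of WNT9A was tested.

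Per length of transcript, ligand and receptor stood closer than their counts do, with the lengths that the files imply, 591 bases for BDNF and 4002 bases for NTRK2. Whether the untranslated parts of BDNF were counted is not known, and the FPKM ratio and ranks of BDNF depend on it. The authors' pooled FPKM (fragments per kilobase scaled to library size, 1 value per group) of BDNF was 17.4 in RCAS(A), with bounds of 12.5 and 22.4, and 10.9 in RCAS(A)-Wnt9a, with bounds of 7.29 and 14.5. For NTRK2 it was 24.2 (bounds 20.0 and 28.4) and 17.7 (bounds 14.5 and 20.8). On this scale the authors' bounds for NTRK2 and for BDNF overlapped in RCAS(A) and lay just apart in RCAS(A)-Wnt9a. The ratio of NTRK2 to BDNF was 1.39 in RCAS(A) and 1.62 in RCAS(A)-Wnt9a in FPKM. By pooled FPKM, BDNF stood above 51.4% of the 11977 tested genes with an FPKM in RCAS(A) and above 39.3% in RCAS(A)-Wnt9a, and NTRK2 above 62.1% and 51.5%.

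In CPM, the log2 ratio of NTRK2 to BDNF counts was 3.48, 3.13 and 3.07 in RCAS(A) libraries 2, 3 and 4 and 3.67, 3.43 and 3.34 in RCAS(A)-Wnt9a libraries 1, 2 and 3. These ranges overlapped, since RCAS(A) library 2 lay above 2 of the 3 RCAS(A)-Wnt9a libraries. The larger relative difference of BDNF thus did not separate the groups library by library. Counting alone gives BDNF a coefficient of variation of 6.64% in RCAS(A) library 2. It gives 8.11% and 9.13% in RCAS(A)-Wnt9a libraries 2 and 3, so the order of these ratios is not resolved.

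Both members were among the 276 genes that passed an adjusted p of 0.05 in the edgeR fit, 2.27% of the 12133 genes tested, and among the 102 lower ones, 0.841%. Libraries that did not overlap between groups, with RCAS(A)-Wnt9a lower, were found for 9.16% of tested genes. Nothing is read from these counts, as the contrast had chosen the members. Among the 102 lower genes, whose median log2 fold change was -0.54, BDNF had the 32nd and NTRK2 the 66th most negative fold change. Of all tested genes, 0.742% had a more negative log2 fold change than BDNF and 2.13% than NTRK2.

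The authors' deposited table from edgeR gives log2 fold changes of -0.73 for BDNF and -0.49 for NTRK2, with adjusted p of 0.000132 and 1.35e-05. The authors' deposited table from DESeq2 gives -0.44 with an SE of 0.10 for BDNF and -0.41 with an SE of 0.08 for NTRK2, with adjusted p of 0.00128 and 2.02e-05. In that table the members look alike in size, whereas DESeq2 without a prior on fold changes gave -0.73 and -0.49 from the same counts. The authors' deposited value from DESeq2 was thus 0.606 of the refitted one for BDNF and 0.841 for NTRK2. These values all rest on the same 6 libraries.

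The log2 fold change of BDNF lay between -0.81 and -0.65 when 1 library was left out. BDNF missed the threshold without RCAS(A) library 3 (log2 fold change -0.73, edgeR adjusted p = 0.0510) and without RCAS(A) library 4 (-0.70, adjusted p = 0.0781). Without RCAS(A) library 2 it passed only just (-0.77, edgeR adjusted p = 0.04999). NTRK2 stayed past the threshold in all 6 of these fits, which is a description only, as the contrast had chosen it. Its log2 fold change was nearest to 0 without RCAS(A) library 2, at -0.39 with an SE of 0.08.

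**Figure D2:**
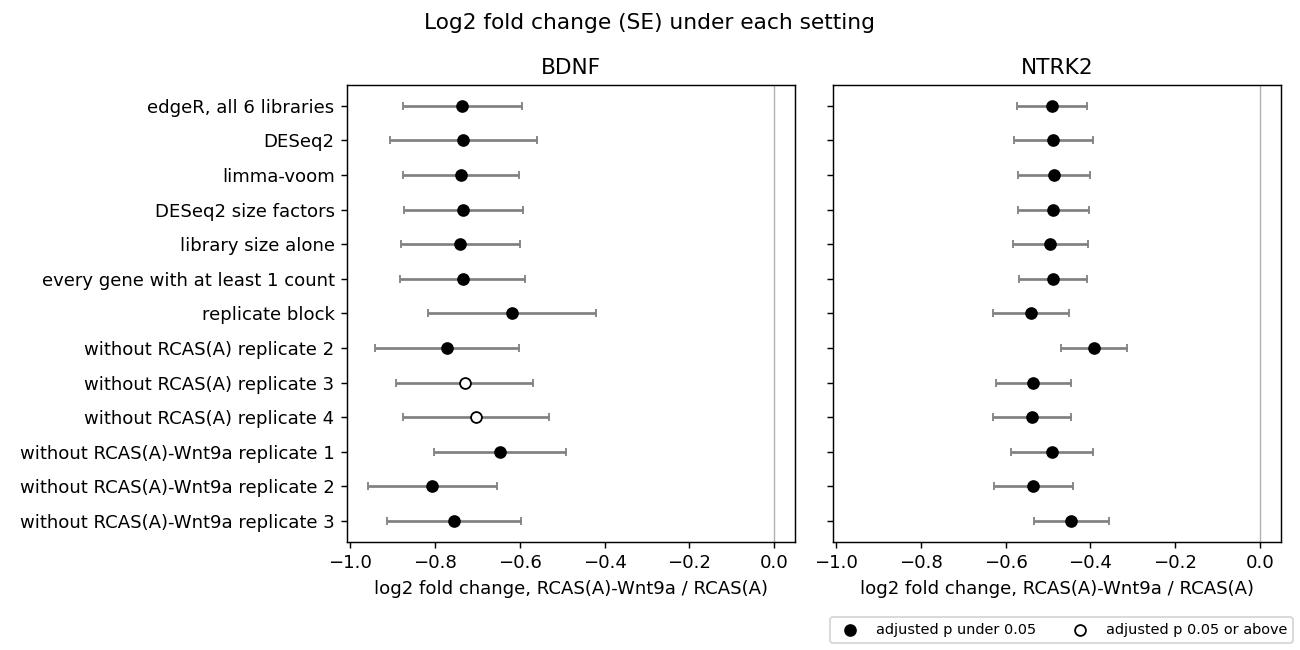
Log2 fold change of BDNF and NTRK2 (RCAS(A)-Wnt9a over RCAS(A), bars are 1 SE) in the edgeR fit of all 6 libraries and under each alternative; filled points have an adjusted p under 0.05. The open points of BDNF are the fits without RCAS(A) library 3 and without RCAS(A) library 4. Its filled point without RCAS(A) library 2 has an edgeR adjusted p of 0.04999.

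The gene model of BDNF in the files is short. It is listed at chromosome 5, 3757391 to 3758132, in the galGal4 build that the submitters' processing notes name, an interval of 741 bases from start to end, and only 1.39% of tested genes have an interval this short. BDNF is known for several noncoding upstream exons and a long 3′ untranslated region, and the files do not show whether reads from such parts entered its counts. The nearest tested gene on one side (ENSGALG00000012170, 30.4 kb away) had 223 ± 3.59 CPM in RCAS(A) and 229 ± 10.2 CPM in RCAS(A)-Wnt9a (SD, n = 3 per group), with a log2 fold change near 0 (0.04, SE 0.06; adjusted p by edgeR 0.869). The nearest on the other side (ENSGALG00000012160, 117 kb away) differed by 0.13 on the log2 scale (SE 0.08; adjusted p by edgeR 0.556). The median log2 fold change of the 778 tested genes on chromosome 5 was -0.007, and 5 of them had a more negative value than BDNF.

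NTRK2 is listed on the Z sex chromosome, at 40148866 to 40355175 in galGal4. Male birds have a pair of Z chromosomes and females a Z and a W, and Z genes are only in part compensated for dose, so a Z gene can vary with the sexes in a pool. The labels do not give these. The 6 tested W genes summed to 153, 168 and 157 CPM in RCAS(A) libraries 2, 3 and 4, and to 167, 175 and 122 CPM in RCAS(A)-Wnt9a libraries 1, 2 and 3. RCAS(A)-Wnt9a library 3 was the lowest in W genes and also the highest in Z genes, whose median stood 0.08 above their mean over the libraries on the log2 scale, against -0.05 to 0.01 in the other 5 libraries.

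NTRK2, which was chosen on this contrast, is set here beside the median of the Z genes. The part of the sexes of the embryos in its level was not tested. NTRK2 was lowest in RCAS(A)-Wnt9a library 3, at 0.41 below the Z median on the centred log2 scale, and it lay 0.11 to 0.24 below that median in the other RCAS(A)-Wnt9a libraries and 0.15 to 0.42 above it in the RCAS(A) libraries. The 595 tested Z genes had a median log2 fold change of 0.02, and 16 of them had a more negative one than NTRK2. Less the Z median, the log2 fold change of NTRK2 was -0.51. With no Z median taken off, the fit without RCAS(A)-Wnt9a library 3 gave -0.44 with an SE of 0.09. On Z, 8 genes passed the threshold as lower, 1.34%, and 5 as higher, 0.840%. The nearest tested genes on either side, 190 and 168 kb away, had log2 fold changes of 0.16 (SE 0.08) and -0.13 (SE 0.09), with edgeR adjusted p of 0.447 and 0.599.

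**Figure D3:**
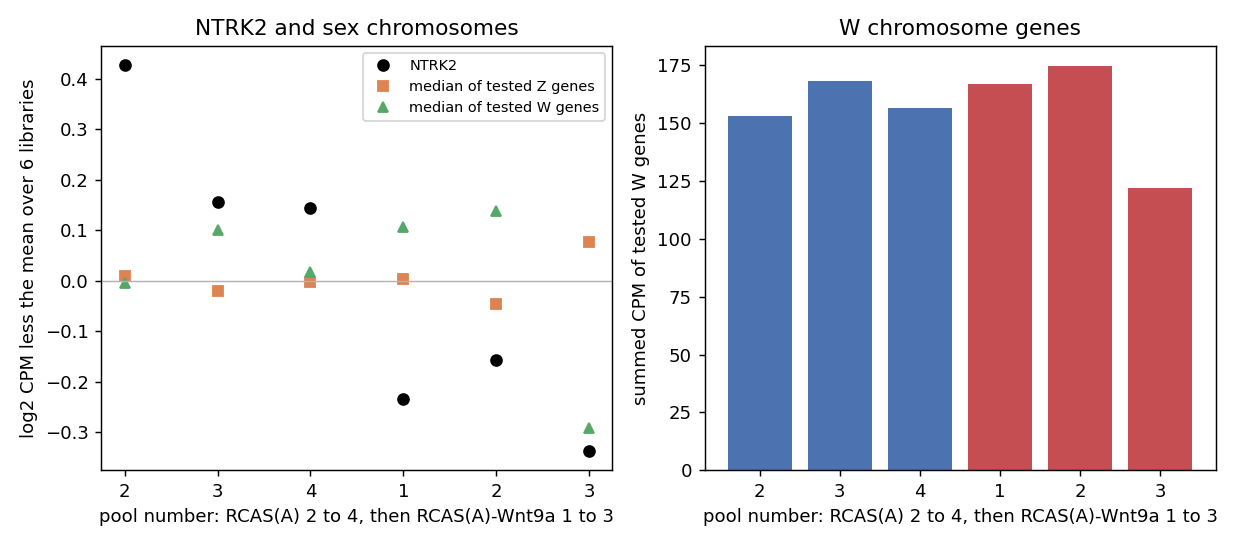
Left, log2 CPM less its mean over the 6 libraries for NTRK2 and for the medians of 595 tested Z genes and 6 tested W genes; right, the summed CPM of the W genes, by library. NTRK2, chosen on this contrast, separates the groups, as do 9.16% of all tested genes with RCAS(A)-Wnt9a lower. The Z median runs from -0.05 in RCAS(A)-Wnt9a library 2 to 0.08 in library 3, which has the lowest W sum, at 122 CPM.

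Few other genes of the neurotrophin pathway could be paired with a value. Of 149 genes in 5 lists (ligands and receptors, processing and secretion, TRK adaptors and effectors, responsive genes, and other neurotrophic factors), 6 have a name in the authors' tables, BDNF and NTRK2 among them. Of these 6, 3 fell, none rose and 3 missed the threshold, where 0.841% of all tested genes passed as lower and 1.43% as higher. Of the 4 that are not members, only ERBB4 passed. Since those tables list genes called changed in these libraries, the counts are not independent evidence. The median log2 fold change of the 6, the members included, was -0.65, against -0.0037 over all tested genes. Genes named as changed lie away from 0 by choice, and the members were themselves found as changed. Nothing is read from this median. The list genes without a name, among them all 66 adaptors and effectors and all 28 responsive genes, were not analysed here.

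Among receptors, SORCS3 encodes a VPS10 domain receptor related to sortilin, which binds neurotrophin precursors. It was at 145.6, 167.2 and 106.9 CPM in RCAS(A) libraries 2, 3 and 4 and at 60.7, 100.3 and 88.8 CPM in RCAS(A)-Wnt9a libraries 1, 2 and 3. The groups did not overlap, but both were wide, and the log2 fold change of -0.75 (SE 0.26) missed the threshold (edgeR adjusted p = 0.333). The size of its fold change was about that of BDNF, with a larger SE.

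ERBB4, a receptor tyrosine kinase for neuregulins, was the third pathway gene past the threshold. It went from 14.2, 13.1 and 11.9 CPM in RCAS(A) libraries 2, 3 and 4 to 7.56, 8.23 and 7.64 CPM in RCAS(A)-Wnt9a libraries 1, 2 and 3. The groups stood well apart, and ERBB4 differed by -0.74 on the log2 scale (SE 0.13; adjusted p by edgeR 0.00632). Without RCAS(A) library 2 its adjusted p was 0.0559.

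For the secretory route of BDNF, PCSK1, a proprotein convertase of the regulated pathway, and CHGA, chromogranin A of dense core granules, had a name. PCSK1, also on Z, was at 38.4 to 44.0 CPM in RCAS(A) and at 29.6 to 37.5 CPM in RCAS(A)-Wnt9a (log2 fold change -0.35 with SE 0.10; adjusted p by edgeR 0.101). CHGA was at 204.9 to 232.5 CPM in RCAS(A) and at 196.5, 101.6 and 145.9 CPM in RCAS(A)-Wnt9a libraries 1, 2 and 3 (log2 fold change -0.56 with SE 0.25; adjusted p by edgeR 0.457). Neither passed, and the RCAS(A)-Wnt9a libraries of CHGA were far apart.

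**Figure D4:**
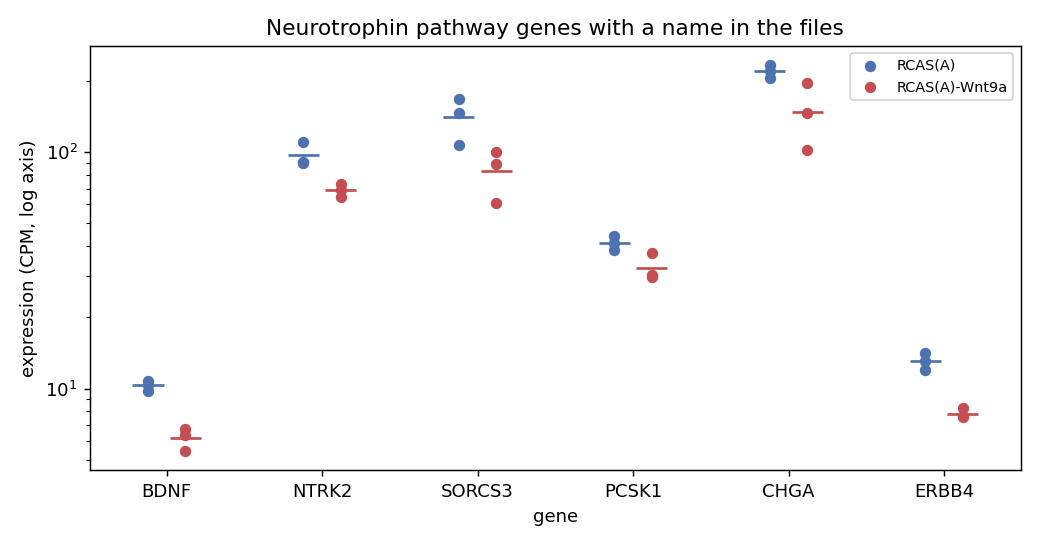
CPM on a log axis of the 6 genes of the neurotrophin and other neurotrophic lists with a name, 1 point per library. RCAS(A) is in blue and RCAS(A)-Wnt9a in red, with group means as lines. The points of the groups do not overlap, a separation with RCAS(A)-Wnt9a lower that 9.16% of all tested genes showed, and these 6 genes were chosen through tables of changed genes; BDNF, NTRK2 and ERBB4 are the genes past the threshold, and heights are not per length and so not comparable between genes.

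All markers with a value below are named because the authors' tables list them as changed in these libraries, so their counts and sums, set against 0.841% of tested genes called lower and 1.43% called higher, are descriptions of chosen genes. Calls and misses below are those of the edgeR fit. With DESeq2 all 27 named cell type markers passed, also those that missed in edgeR. Their names come in part from the authors' own DESeq2 results, so nothing is read from this. Of 28 hair cell markers, 4 had a name: BDNF, CIB2, of the mechanotransduction complex, and ATP2B2, a calcium pump of the hair bundle, fell, and PCDH15, a tip link gene, missed the threshold with a log2 fold change of 0.54 (edgeR adjusted p = 0.0702). The log2 fold changes of CIB2 and ATP2B2 were -0.60 (SE 0.13) and -0.45 (SE 0.08), with edgeR adjusted p of 0.0396 and 0.0101. Without BDNF the named hair cell markers summed to 83.0 to 85.7 CPM in RCAS(A) and 60.2 to 71.2 CPM in RCAS(A)-Wnt9a. CIB2, with means of 42.9 and 28.3 CPM, and ATP2B2, with 31.0 and 22.8 CPM, held most of this sum. PCDH15 went the other way, from 10.7 to 15.5 CPM. The sum therefore says little on the hair cell markers without a name. The call of CIB2 was lost without any RCAS(A) library or RCAS(A)-Wnt9a library 2, with adjusted p of up to 0.150, and that of ATP2B2 without RCAS(A) library 2 or 4, with up to 0.0794. The part of these cells in the lower level of BDNF was not tested.

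Among 25 genes listed as prosensory and supporting cell markers, 11 had a name, and 3 of these did not pass. The 5 that fell were SOX2, ISL1, HES5, TECTB and SPARCL1, and the 3 that rose were LMX1A, DLX5 and PAX2. How far each of them marks these cells in the papilla was not tested. SOX2, a transcription factor of prosensory cells, fell by 0.49 on the log2 scale, from 70.4 ± 2.23 to 50.3 ± 6.96 CPM (SD, n = 3 per group; edgeR adjusted p = 0.0122), while LMX1A, a homeobox gene, rose by 0.77 (edgeR adjusted p = 0.00147). Among the others, the matricellular gene SPARCL1 fell by 2.62 (edgeR adjusted p = 2.33e-05) and the homeobox gene DLX5 rose by 1.12 (edgeR adjusted p = 0.000987). The call of SOX2 was lost without RCAS(A) library 3 or 4, with adjusted p of up to 0.0630. Those of HES5 and TECTB were lost in 4 and that of PAX2 in 5 of the 6 fits that leave out a library, with adjusted p of up to 0.167, 0.110 and 0.221. The summed level of the 11 was 1675 to 1894 CPM in RCAS(A) and 1678 to 2008 CPM in RCAS(A)-Wnt9a, so that the groups overlapped. GJB6 and HEY1, which missed the threshold, held much of this sum. GJB6 had means of 697.3 CPM in RCAS(A) and 960.5 CPM in RCAS(A)-Wnt9a, and HEY1 had 588.1 and 477.7 CPM. The sum therefore says little on the other markers. The part of prosensory cells in the level of BDNF was not tested.

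Markers of cells that carry NTRK2 were few for neurons and glia. Of 26 ganglion neuron markers, ISL1 had a name besides NTRK2, the member chosen on this contrast, and it fell. ISL1, a LIM homeobox gene on Z that is shared by neurons and prosensory cells, was at 134.5 to 152.3 CPM in RCAS(A) and at 95.5 to 114.4 CPM in RCAS(A)-Wnt9a (log2 fold change -0.51 with SE 0.08; adjusted p by edgeR 0.00300). Of 11 glial and neural crest markers, CDH19, a cadherin of glial precursors, had a name besides NTRK2. It was at 9.62 to 10.5 CPM in RCAS(A) and 12.3 to 17.1 CPM in RCAS(A)-Wnt9a, and its rise (log2 fold change 0.58, edgeR adjusted p = 0.0464) was lost without any RCAS(A) library and without RCAS(A)-Wnt9a library 1 or 2, with adjusted p of up to 0.181.

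Of 23 periotic mesenchyme markers, 9 had a name; 3 of these rose, 4 did not pass and 2 fell, of which 1 was NTRK2 itself. PRRX1, a homeobox gene of mesenchyme, rose by 0.99 on the log2 scale (edgeR adjusted p = 0.000199), HAPLN1, a cartilage link protein gene on Z, by 0.49 (edgeR adjusted p = 0.00115) and COL9A1, a cartilage collagen gene, by 0.29 (edgeR adjusted p = 0.0286). The other lower one was LUM, the proteoglycan lumican. Without NTRK2 the 8 others summed to 1425 to 1550 CPM in RCAS(A) and to 1701 to 1922 CPM in RCAS(A)-Wnt9a. Both named endothelium and blood markers of 15, FLT1 and TFRC, rose, by 0.39 and 0.24 (edgeR adjusted p = 0.0341 and 0.0428). In the sum of the 8 mesenchyme markers, COL1A2, PDGFRA and TBX18, which missed the threshold, and COL9A1, which passed as higher, held much. COL9A1 had means of 477.2 CPM in RCAS(A) and 582.6 CPM in RCAS(A)-Wnt9a, and COL1A2 had 497.1 and 606.9 CPM. No named marker was at 0 in any library. Of the 6 fits that leave out a library, FLT1 passed in 0, LUM and TFRC in 1 each and COL9A1 in 2. Their edgeR adjusted p was up to 0.164, 0.177, 0.171 and 0.174 in that order. The part of mesenchyme, endothelium and blood cells in the level of NTRK2 was not tested.

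To find the genes whose pattern was most like that of a member, log2 CPM values were centred on each gene's mean, and the root mean square difference over the 6 libraries was taken against 457 other named genes. For BDNF the nearest were WSCD2 (difference 0.08), B3GNT7, a glycosyltransferase gene (0.09), TMEM9, of a transmembrane protein (0.09), C4ORF19 (0.11) and BEGAIN, of a postsynaptic protein (0.12). All of these had their lowest level in RCAS(A)-Wnt9a library 1, as BDNF did. They were picked for likeness over these same libraries, so nothing is read from it. The Poisson interval of BDNF in that library, 4.52 to 6.51 CPM, held its 6.37 CPM of RCAS(A)-Wnt9a library 3. The log2 fold changes of the 5 genes lay between -0.68 and -0.53. NTRK2 itself ranked 73rd in likeness to BDNF, with a difference of 0.20.

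For NTRK2 the nearest were ATP2B2 (difference 0.08), PLPPR1, a lipid phosphatase-related gene of neurons (0.09), C1QTNF4, of a secreted protein (0.09), SCUBE1, of a secreted and surface protein (0.10), and TRAFD1 (0.10). Their log2 fold changes lay between -0.55 and -0.42. BDNF ranked 106th in likeness to NTRK2. The compared genes are those the authors' tables name, so a shift between the groups is common to them by choice. Of all 10917 genes at this expression level, named or not, 6 were nearer to BDNF than BEGAIN, and 10 were nearer to NTRK2 than TRAFD1.

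**Figure D5:**
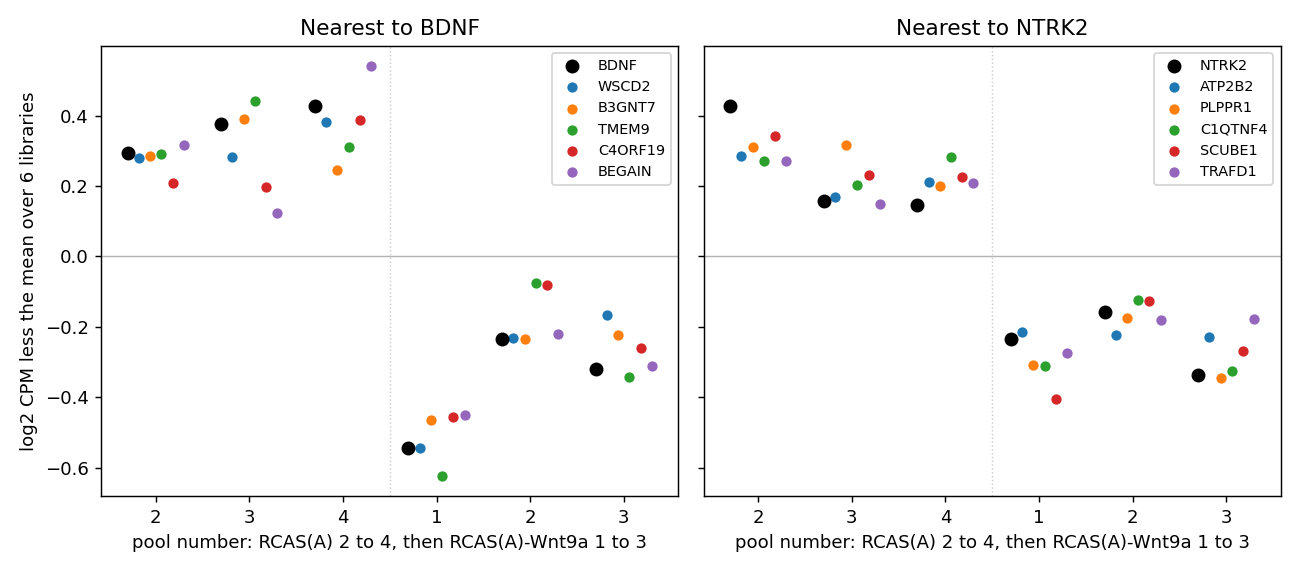
Log2 CPM less its mean over the 6 libraries for BDNF, NTRK2 (black) and the 5 named genes nearest to each, by library, RCAS(A) left of the dotted line. The genes were picked for likeness over these same libraries, so the low value in RCAS(A)-Wnt9a library 1 that those nearest to BDNF share follows the choice. Those nearest to NTRK2 differ from it by a root mean square of 0.08 to 0.10.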

How the data were processed

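Per the submitters' processing notes, TopHat2, DESeq, edgeR, DESeq2 and galGal4 were used. Which tool counted the reads, with which strand setting and annotation, is not given in the sources used here. The authors deposited whole-number counts per gene and library. Per the file headers, the DESeq2 table has log2 fold changes with SE, p-values, a score (Wald statistic) and a mean signal over libraries (baseMean), and the edgeR table, whose header is shifted left by 1 column, has log2 fold changes, log2 CPM and p-values. The deposited FPKM values are 1 pooled value per group with confidence bounds.

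The main test, run in R 4.3.3 on the 12133 of 15955 genes that filterByExpr kept, was the two-sided quasi-likelihood test of edgeR 4.0.16 (glmQLFTest after a robust glmQLFit) with TMM scaling. A call needs a Benjamini-Hochberg adjusted p below 0.05. The fit was also run on counts simulated from its own estimates of spread. That run cannot show how the fit handles differences between real pools, and nothing is read from it. The SE is the log2 fold change divided by the square root of F. Centred log2 CPM used a prior count of 2. Likeness was taken over named genes with an average log2 CPM of at least 1.

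Named were the members, named list genes, up to 4 per cell type list by smallest p, and the 5 nearest in pattern; others were chosen for context after their values were seen. Members and lists were chosen with earlier results of these data known. Names came from the authors' tables (493 of 522 genes), matched to RefSeq symbols of GRCg7b. Alternatives were DESeq2 1.42.0, limma 3.58.1 (voom), other scalings and filters, a replicate block, and leaving out each library. Replicates are separate pools per the series' design.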

Additional observations from a re-analysis of the deposited data

How the results depend on the processing

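All 13 alternatives left both members lower with RCAS(A)-Wnt9a, a direction that is close to fixed where libraries do not overlap. NTRK2 kept its call in all 12 that had a test (log2 fold change -0.54 to -0.39). The contrast had chosen both members, so no support is read from calls that were kept. BDNF lay between -0.81 and -0.65 with 1 library left out and lost its call in 2 of those 6 fits. It kept the call only just without RCAS(A) library 2 (edgeR adjusted p = 0.04999). Genes called numbered 276, 437 with DESeq2, and 146 to 294 with 1 library left out, lowest without RCAS(A) library 4 (146) and library 2 (148). Pathway list members called went from 3 to between 2 and 4 with 1 library left out. Cell type list members called went from 19 to between 7 and 20 with 1 library left out. They numbered 9, 11 and 7 without RCAS(A) library 2, 3 or 4 and 11 without RCAS(A)-Wnt9a library 2. With DESeq2 they numbered 27, which is every named one, and their names come in part from the authors' own DESeq2 results.

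The titles share only the numbers 2 and 3, and for these the deviations from the group means had correlations of -0.009 and 0.192, so these numbers cannot show a pairing. With the replicate block, a library whose number is not shared has no partner, so the contrast rests on numbers 2 and 3 alone. The block called 537 genes and 5 pathway list members, SORCS3 and CHGA among them. With so few libraries behind them, these calls are not read. The log2 fold changes with the block were -0.62 for BDNF and -0.54 for NTRK2. With values also divided by each gene's SD, 0 of the 5 genes nearest to either member stayed. With an average log2 CPM of at least 3, all 5 did. The cause of these changes was not tested. Few counts limit BDNF, with 120 to 227 per library.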

Other observations

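When the centred values were also divided by each gene's SD, which sets aside the size of the change, the named genes nearest to BDNF were IL16, KCNJ15, STC2, TECTB and FZD10. Those nearest to NTRK2 were SORBS2, ERBB4, NXPH2, CACNA1I and SPARCL1. ERBB4 was the second nearest of these, with a root mean square difference of 0.23 in SD units over 6 libraries, and only 6 of the 149 pathway genes have a name and were compared.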
